A study of Homo sapiens with 2 samples.

Results

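Assembled transcripts of class j in T47D mammospheres are described here. In the class codes of transcript assembly, j marks a multi-exon transcript that shares at least 1 splice junction with an annotated transcript but has another chain of junctions. All entries of the deposited list of assembled splice variants with class code j were taken, which gave 3462 of 4993 (69.3%). They came from 2378 genes: 1688 genes had 1 class j variant, 456 had 2, 151 had 3 and 83 had 4 or more. Protein-coding genes held 3104 of them, long noncoding RNA genes 218, transcribed pseudogenes 130 and other genes 10. A class j variant had a median of 9 exons (range 2 to 115) and a median length of 3886 bases (range 201 to 58089).

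T47D is an established luminal, estrogen receptor positive breast cancer cell line. Both libraries came from secondary mammospheres, which are spheres grown in MammoCult medium on ultralow attachment plates for 7 days, taken apart and grown for 7 more days. The control library and the library labelled CIC knockdown were the 2 groups, with 1 library each (the series' design text speaks of duplicates), and the labels do not say how CIC was lowered. CIC (capicua) is a transcriptional repressor that acts below receptor kinase signalling. The gene total of CIC did not follow the label: it was 607 estimated counts in the control library against 872 in the library labelled CIC knockdown, or 1.65 TPM (StringTie's measure of level, corrected for length and depth) in each. After scaling for depth the CIC ratio was 0.98 (95% exact counting interval 0.882 to 1.09). Every direction below therefore compares the library labelled CIC knockdown with the control library, and not a library shown to have less CIC. With 1 library a group there is no replicate spread and no test, and all intervals cover counting error only. Estimated counts summed to 47099221 in the control library against 68420805 in the library labelled CIC knockdown. Of 24 genes on a luminal list, 23 reached 1 TPM in both libraries, with ESR1, the estrogen receptor, at 65.7 and 65.3 TPM. No list of basal genes was set beside it. In bulk RNA, fewer cells of a type and less RNA per cell cannot be told apart.

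A gene's primary transcript can be spliced in several ways: an exon can be skipped, a donor or acceptor site can be moved, or an intron can be kept. A changed chain can alter the protein, or bring an early stop codon ahead of a later junction, a feature that nonsense-mediated decay acts on. Many splicing factors make such transcripts of their own genes through poison exons. Assembly from short reads places a junction wherever reads align with a gap, so that repeated sequence, small deletions and run-through into a neighbouring gene can also appear as junctions.

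Junctions were compared with GENCODE, since exon coordinates of the annotated RefSeq transcripts were not used here. Of 38966 junctions in class j variants, 94.9% were in GENCODE and 1981 (1732 distinct) were not. The whole junction chain was a GENCODE transcript's in 375 variants (10.8%), and 337 (9.73%) were part of such a chain. A further 1333 (38.5%) combined known junctions that no single GENCODE transcript held as an unbroken run, and 1417 (40.9%) held at least 1 new junction. The chains found whole in GENCODE were most often those of protein-coding transcripts (179), retained-intron transcripts (86) and processed transcripts (50). Among the distinct new junctions, 665 had a new donor and a new acceptor, 331 a new donor more than 50 bases from a known one, 234 such an acceptor and 192 skipped exons. A further 106 had an acceptor within 50 bases of a known one, 57 such a donor, 37 paired known sites in another way, 21 joined 2 genes and 89 were gaps of under 50 bases. Beyond the gene's RefSeq span, 163 variants reached over 1000 bases upstream and 280 downstream.

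Letters could be read only where a GENCODE exon covers them, and the kinds differed among the junctions that could be read. These were 29 of 234 new acceptors away from known ones, 41 of 331 such donors and 75 of 89 short gaps. Of 665 junctions with both sites new, 267 were read: all 81 inside coding exons, but 96 of 494 not within 1 exon. The percentages below describe the read part only. GENCODE introns of at least 50 bases began with GT or GC and ended with AG in 97.7% of 40575 that could be read. New acceptors away from known ones read so in 29 of 29 junctions (100%) and new donors away from known ones in 95.1% of 41. Junctions with both sites new did so in 46.4% of 267, and 66 of them began with CT and ended with AC, which 0.0197% of the GENCODE introns did. CT to AC is GT to AG read on the opposite strand. Short gaps read GT or GC to AG in 22.7% of 75.

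A group of the new junctions lay inside repeats, many of them coding. The number of bases along which a junction could be shifted without changing the spliced sequence was counted. It was 10 or more in 166 of 40370 GENCODE introns (0.411%), in 78 of 264 junctions with both sites new (29.5%) and in 24 of 74 short gaps (32.4%). It was 10 or more in 69.7% of the 66 CT to AC junctions with both sites new, with a median of 35.5 bases. Over all kinds, 103 distinct junctions in 99 variants of 54 genes had such a repeat, and 58.3% of them left out a multiple of 3 bases, against 34.4% of the other new junctions. Of 81 junctions with both sites new inside 1 coding exon, 41 had a repeat and 59 left out a multiple of 3 bases. AHNAK held 23 of the 41 and OGFR 6. The following stretches show this, each pair giving the first bases left out and the first bases after the junction, 5′ to 3′ on the gene's strand (GRCh38). Capitals mark letters that differ within a pair. UBB encodes head-to-tail copies of ubiquitin. AHNAK is a giant scaffold protein with a long repeated core. OGFR, the opioid growth factor receptor, has repeats near its end.
UBB left out, chr17:16382184-16382213 (plus): gtggagcccagtgacaccatcgaaaatgtg
UBB after, chr17:16382412-16382441 (plus): gtggagcccagtgacaccatcgaaaatgtg
AHNAK left out, chr11:62521754-62521783 (minus): ctgcccaaggctgacCttgaCgtctcagga
AHNAK after, chr11:62520362-62520391 (minus): ctgcccaaggctgacAttgaTgtctcagga
OGFR left out, chr20:62813381-62813410 (plus): ctAcaAgggaTgagccagccgagagcccat
OGFR after, chr20:62813501-62813530 (plus): ctGcaGgggaCgagccagccgagagcccat

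The new junction of UBB left out 228 bases of its coding exon, the length of 1 ubiquitin unit of 76 codons. It read GT to AG, could be shifted along 44 bases, and left a frame of 153 codons that ran to the annotated stop. In AHNAK, 23 junctions in 16 variants left out 201 to 8034 bases of an exon of 17328 (chr11:62516747-62534074), all multiples of 3, and all 23 lay in repeats of 26 bases or more. Of these, 9 read GT to AG and 14 CT to AC. The 6 junctions of OGFR left out multiples of 60 bases (60 to 180), and all 6 read CT to AC.

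**Figure D1:**
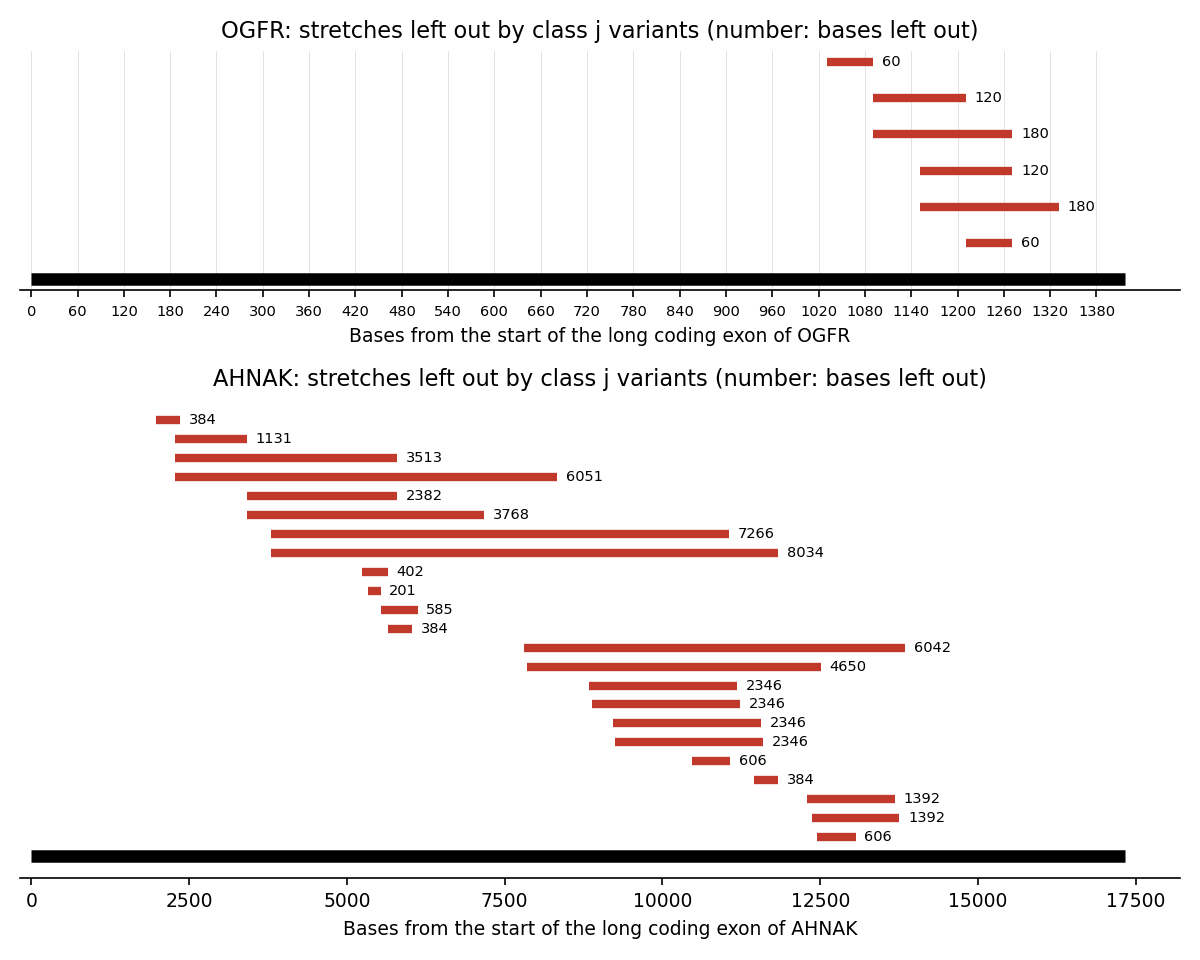
Stretches left out by class j variants within the long coding exon of OGFR (top) and AHNAK (bottom), in bases from the exon's start; each red bar is 1 distinct junction with its length, and the black bar is the exon. In OGFR all 6 bars are 60 bases or a multiple of it; in AHNAK they run from 201 to 8034 bases.

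Calls here rest on a rule of size, and not on a test: at least 100 counts in 1 library, a ratio of at least 2-fold after scaling for depth, and a 95% counting interval that leaves out a ratio of 1. It called 16.4% of class j variants higher and 16.7% lower, beside 20.3% and 16.6% of all transcripts. The UBB variant with the new junction had 4574 counts in the control library against 6287 in the library labelled CIC knockdown, or 139 and 133 TPM. A further UBB variant, whose chain GENCODE holds whole, had 3997 and 5868 counts. Neither was called.

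AHNAK varied from model to model. Its 17 class j variants, the most of any gene, summed to 25816 counts in the control library against 44299 in the library labelled CIC knockdown (56.4% and 68.7% of the gene), while the gene total had a log2 ratio of -0.06. One AHNAK variant of 18151 bases had 0 and 13879 counts, at least 3155-fold higher. An AHNAK variant of 12130 bases had 4007 and 300 counts, and one of 18556 bases had 4597 and 6874, or 5.28 and 5.46 TPM. The rule of size called 5 AHNAK variants higher and 5 lower, beside 16.4% and 16.7% of all class j variants. OGFR variants had 701 and 666, 553 and 599, 397 and 366, 213 and 270, 128 and 460, and 0 and 373 counts in the control library and the library labelled CIC knockdown. The last 2 of these OGFR variants were called higher, and the others were not called.

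Smaller changes inside coding exons were also read. The stretches below were left out whole by class j variants; in them the first and last 2 letters are in capitals. TPT1 encodes translationally controlled tumour protein, and RBM27 an RNA-binding protein; SRRD is named without a role.
TPT1, chr13:45340106-45340165 (minus): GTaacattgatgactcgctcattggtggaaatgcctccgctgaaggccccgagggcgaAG
RBM27, chr5:146233636-146233659 (plus): GTccaggcccaggcccgggcccAG
SRRD, chr22:26483984-26484004 (plus): GCggcgccccgggggagagAG

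The TPT1 stretch of 60 bases had splice letters at both ends, could be shifted along 7 bases, and left a frame of 152 codons ending at the annotated stop. This TPT1 variant was the second most abundant class j variant, with 59199 counts (1158 TPM) in the control library against 72455 (980 TPM) in the library labelled CIC knockdown. It held 65.6% and 64.2% of TPT1. The RBM27 stretch could be shifted along all of its 24 bases and the SRRD stretch along all of its 21, so that both lay in repeats. Each of these 2 variants was read in 1 library: the RBM27 variant had 612 and 0 counts (at least 299-fold lower), and the SRRD variant 0 and 510 (at least 116-fold higher).

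Acceptors 3 bases downstream of a known one made up 29 of the 106 new acceptors near a known one. All 29 had the letters NAG as the 3 bases left out (N is any base; read on the gene's strand). These bases end the new intron, where a spliced alignment favours AG, so the count is a description. At 5.79% of 284676 GENCODE acceptors the first 3 exon letters read NAG. NAGNAG acceptors of this kind add or remove 1 codon where they fall in frame, and 24 of the 29 were in coding exons. In the stretches below (GRCh38) capitals mark the 3 bases left out, followed by the exon. MDM2 is the ubiquitin ligase of p53, NCOA3 a steroid receptor coactivator, THRAP3 a splicing and transcription cofactor, and RPLP2 a protein of the ribosomal stalk; FAM120A binds RNA.
MDM2, chr12:68828771-68828785 (plus): AAGaaaattcagatg
NCOA3, chr20:47650982-47650996 (plus): CAGggttttcttaat
THRAP3, chr1:36301553-36301567 (plus): CAGtttcgagccaga
FAM120A, chr9:93515667-93515681 (plus): CAGccagacccggtc
RPLP2, chr11:812760-812774 (plus): CAGaggagaagaaag

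These 5 genes did not move together. The MDM2 variant had 13782 counts in the control library against 19457 in the library labelled CIC knockdown, 44.9% of the gene in each (log2 ratio -0.05). The NCOA3 variant had 7986 and 7017 counts (-0.74), and the RPLP2 variant 734 and 1600 (0.57). The FAM120A variant was higher, with 1435 and 9674 counts (log2 ratio 2.20), and went from 12.6% to 55.1% of its gene. THRAP3 had a pair of variants with this acceptor that moved in opposite directions, one with 63 and 4141 counts and one with 4477 and 1560.

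Short gaps of 20 to 48 bases (median 28) were found 89 times in 84 genes. Of these, 52 lay in 3′ UTRs, 7 in 5′ UTRs and 11 in coding exons; a single base made up at least 80% of 9 of the 75 that could be read. CD47, the "do not eat me" signal on cells, had 4 class j variants, each with a gap in a run of T in its 3′ UTR. Of the CD47 variants, the pair read in the control library had 2209 and 2379 counts there and 0 in the library labelled CIC knockdown, and the other pair had 0 in the control library and 3212 and 2014. RPL15, a protein of the large ribosomal subunit, had a short-gap variant with 14732 and 0 counts (at least 7200-fold lower). CBX3, a heterochromatin protein, had one with 0 and 30915 counts (at least 7028-fold higher). APPBP2 had one with 22570 and 0 counts (at least 11031-fold lower). In GFRA1, a co-receptor of GDNF signalling, the short-gap variant was instead at 61.6% and 60% of the gene.

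Skipping of a single exon was seen in 135 distinct junctions. The skipped exon had a median of 103 bases and a length that was a multiple of 3 in 64 (47.4%), beside 41.2% of 169121 GENCODE internal coding exons. Skipped exons were not limited to coding ones, so these sets were not matched. A further 57 junctions skipped 2 or more exons, up to 9.

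Over 50% of the class j frames that could be read to a stop had a junction more than 50 bases after it. Frames were read from the most used GENCODE protein-coding start codon among those within the variant's exons, not limited to its own gene. A stop more than 50 bases before the last junction was called early, so early refers to that junction and not to the frame's length. Of 2275 variants whose frame reached a stop, 1176 (51.7%) had an early one, 363 of them at an annotated stop codon and 813 at a new one. The same reading gave 5.58% of 56220 GENCODE protein-coding transcripts and 95.3% of 11403 GENCODE transcripts marked as targets of nonsense-mediated decay. By the rule of size, early-stop variants were called higher in 17.4% and lower in 16.2%, and variants ending at the annotated stop in 20.1% and 22.9%.

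Class j variants took 9.57% of all merged counts in the control library (4721928) against 9.86% in the library labelled CIC knockdown (6968875), but 2.82% and 2.96% of TPM, which corrects for length. Their median level was 3.67 TPM in each library. Within their own genes they held 43.5% of counts (exact 95% interval 43.43 to 43.49) in the control library against 44.5% (44.48 to 44.53) in the library labelled CIC knockdown. Annotated transcripts of these genes had fewer counts where the models were also listed. They had 9784749 and 14209491 counts in the deposited table without assembled models, of which 62.7% and 61.1% were left in the merged table.

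**Figure D2:**
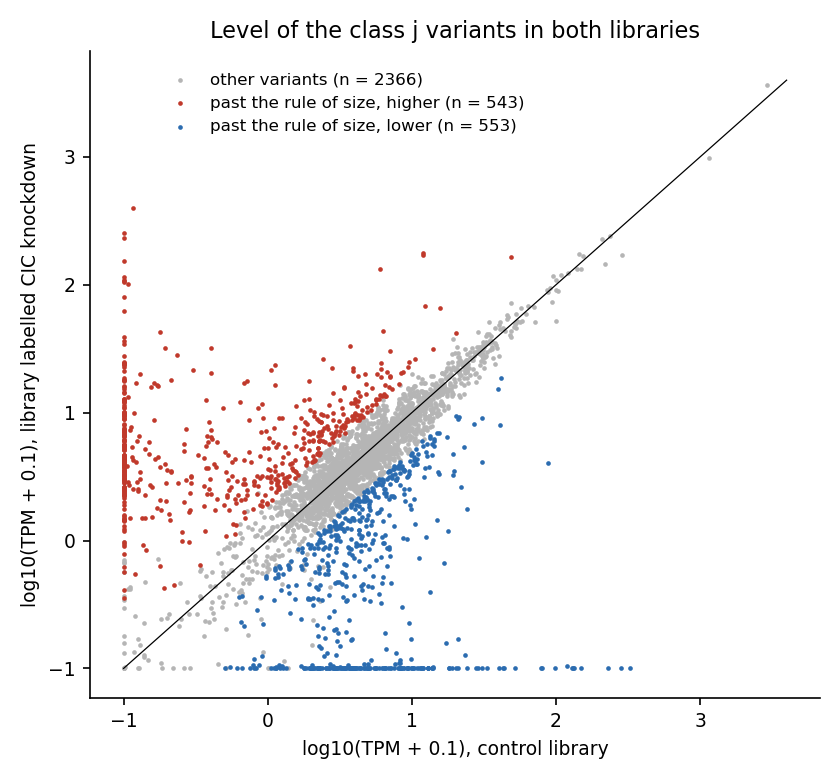
Level of each class j variant in the control library (x) and the library labelled CIC knockdown (y), as log10(TPM + 0.1), 1 point per variant; the line marks equal levels. Most of the 3462 points lie along the line, and 171 and 155 variants listed at 0 counts only in the control library and only in the library labelled CIC knockdown form the edges of the plot.

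The same rule was read over all members. Of 3462 variants, 3321 had enough counts and 141 did not. In the library labelled CIC knockdown the rule called 543 variants higher (16.4%) and 553 lower (16.7%). The background over all transcripts of the merged table was 20.3% higher and 16.6% lower, over all annotated transcripts 21.1% and 16.9%, and over annotated transcripts of the same genes 22.2% and 20.2% (18.8% and 16.7% in the table without models), so that both class j shares lay near or below the background. The median log2 ratio was -0.05 (quartiles -0.54 and 0.47), also with variants at 0 set at their bound, beside 0.02 over all transcripts. Of the higher variants 162 (29.8%) had 0 counts in the control library, and of the lower ones 144 (26%) had 0 in the library labelled CIC knockdown.

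The rule called few gene totals. When all transcripts of a gene were summed, 14 of the 2370 genes tested were called higher (0.591%) and 17 lower (0.717%), and 94.9% lay within 1.5-fold; over all genes 1.44% were called higher and 1.58% lower. When the class j variants of a gene were summed, 13.1% of 2306 genes were called higher and 11.4% lower. Variants with a new junction were called higher in 25.7% and lower in 24.5%, new combinations of known junctions in 11.5% and 12.7%, and parts of a GENCODE chain in 4.57% and 7.93%. By kind of new junction, variants with both sites new were called in 30.7% and 27.2% of 534, short gaps in 35.9% and 27.2% of 92, and exon skips in 18.6% and 27.7% of 188. In 44 groups of near-copies, whose splice sites lay within 10 bases of each other, 31.9% of 94 variants were at 0 in exactly 1 library, beside 8.79% of the others.

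**Figure D3:**
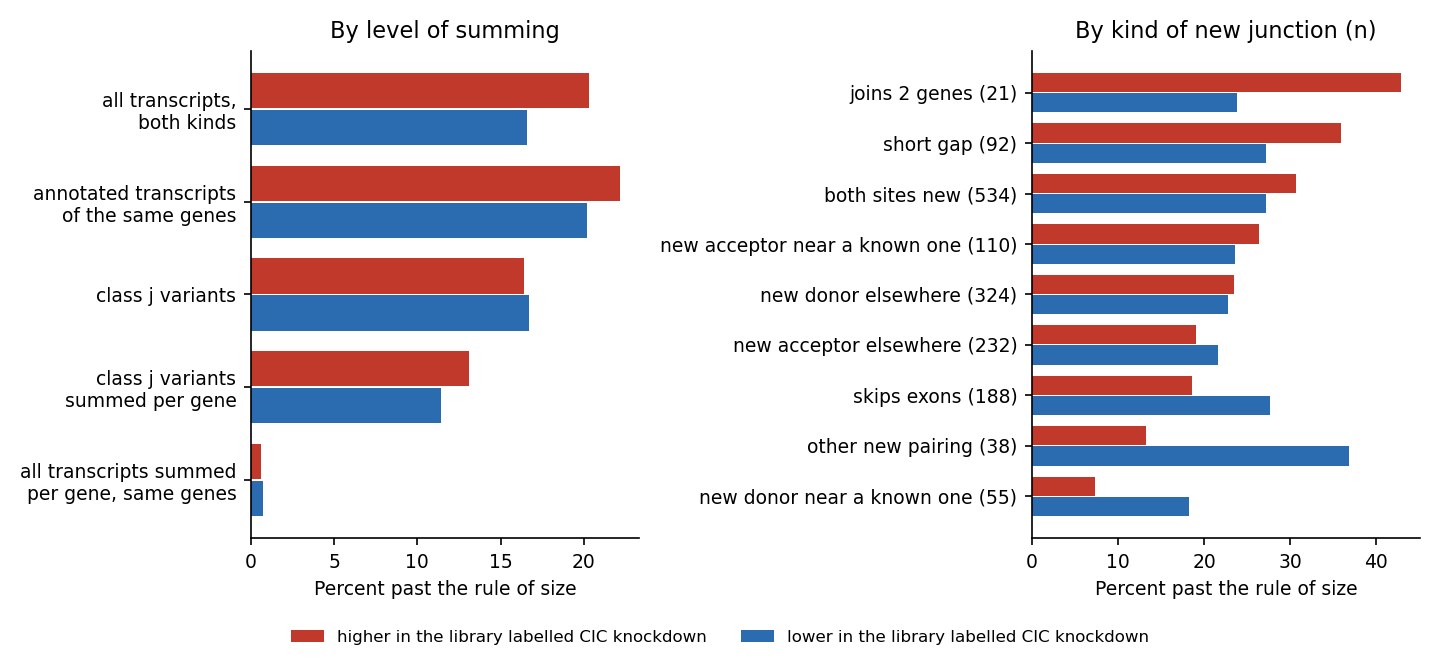
Percent of features past the rule of size, higher (red) or lower (blue) in the library labelled CIC knockdown, by level of summing (left) and, for class j variants, by kind of new junction with the number tested (right). Gene totals are called in under 1% in each direction while single variants are called in 16.4% and 16.7%; short gaps reach 35.9% and 27.2%.

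The share of a gene held by a variant was compared for 3437 variants whose gene had at least 100 counts in both libraries. The median share was 25.9% in each library, and 2074 shares (60.3%) differed by under 10 percentage points. A variant held over 50% of its gene in 810 cases in the control library, in 865 in the library labelled CIC knockdown and in 565 in both. By at least 20 points, with counting intervals that did not overlap, 421 shares were higher and 373 lower. Among the variants with at least 100 counts these were 12.7% and 11.1%, beside 8.19% and 7.86% of all transcripts, 7.73% and 7.53% of all annotated transcripts and 4.24% and 4.44% of annotated transcripts of the same genes. A transcript that holds under 20% of its gene cannot fall by 20 points, and starting shares were not matched between these sets. The transcript that moved most in the opposite direction was an annotated one in 579 of the 794 cases and a further class j variant in 214.

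**Figure D4:**
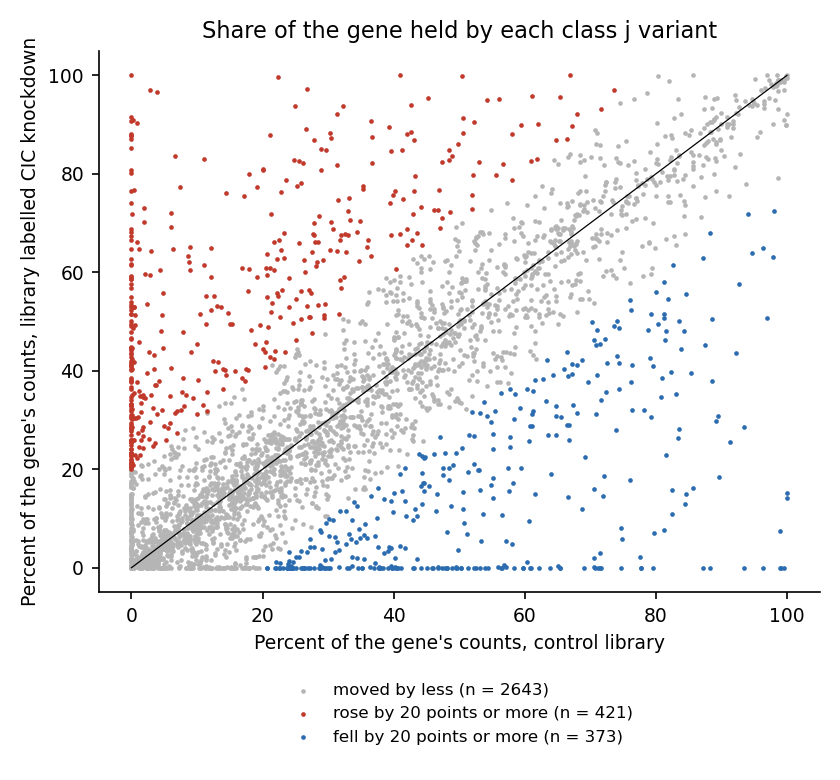
Percent of the gene's counts held by each of 3437 class j variants in the control library (x) and the library labelled CIC knockdown (y); the line marks equal shares, and red and blue points moved by 20 points or more. Along the edges, where a share is 0 in 1 library, coloured points reach up to 100% in the library labelled CIC knockdown and 99.5% in the control library.

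In several of the largest moves in share, an annotated transcript of the gene went the opposite way. The CRISPLD2 variant held 2.81% and 97.1% of its gene (11 and 779 counts), while NM_031476 of CRISPLD2 had 376 and 0. The ATP8B1 variant held 0.219% and 91% (6 and 4074 counts), and NM_005603 of ATP8B1, a phospholipid flippase, had 2545 and 299. In EFR3B the variant had 965 and 0 counts while XM_011532701 had 0 and 2038, and in DNAJC6 846 and 0 while NM_014787 had 0 and 538. In POLR2A, the large subunit of RNA polymerase II, the variant held 100% and 15.2% (1946 and 445 counts). The gene total of POLR2A was 1946 and 2919 counts, a log2 ratio of 0.03. In the table without assembled models, NM_031476 of CRISPLD2 still had 376 and 0 counts. XM_011532701 of EFR3B still had 0 and 2038 there, and NM_014787 of DNAJC6 0 and 538. By contrast, NM_005603 of ATP8B1 had 2552 and 2833 there, and NM_000937 of POLR2A 1944 and 2918.

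Among splicing factor genes, 22 of 36 on the list had a class j variant (61.1%), beside 17% of 13722 genes with at least 100 counts in 1 library. The list itself was not filtered for expression. They held 68 variants, 22 with a new junction. Of the 48 whose frame reached a stop, 47 had an early one, 22 at an annotated stop codon and 25 at a new one. Of 66 tested, 10 were called higher and 8 lower (median log2 ratio -0.08), near the shares over all class j variants (16.4% and 16.7%). No gene total of the list was called, and 3 shares were higher and 0 lower by 20 points. HNRNPA1, an RNA-binding protein that competes with SR proteins, had the list's most abundant variant, with 24033 and 38326 counts (153 and 168 TPM), 94.2% and 93.9% of the gene. HNRNPH1 had 11 variants that summed to 94.6% and 94.1% of the gene, the largest with 17485 and 22650 counts. Other HNRNPH1 variants moved apart: 3014 and 9907 counts in one, and 2425 and 7 in another. RBM39 had 6 variants that summed to 88% and 85.8%, none past the rule. All 6 RBM39 frames stopped early, after 31 or 40 codons.

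SRSF1 is a founding member of the SR proteins. Its 7 variants summed to 5995 counts in the control library against 34667 in the library labelled CIC knockdown, 19.1% and 93.7% of the gene, while the gene total was 31331 and 36983 (log2 ratio -0.31). The 2 leading SRSF1 variants spanned chr17:57989042-58007246 at 15756 and 16838 bases, with 2800 and 22322 counts and with 1822 and 10838. The annotated SRSF1 transcripts NM_006924 and NM_001078166 had 11449 and 1172 counts and 13857 and 1050 in the merged table. In the table without assembled models the same SRSF1 transcripts had 10017 and 20748, and 14607 and 17190. Both annotated SRSF1 transcripts thus had fewer counts in the library labelled CIC knockdown in the merged table, and more in the table without models.

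Ribosomal protein genes on the list, which leaves out RPSA, had 17 variants in 14 of 78 genes, 12 with a new junction. Of 17 tested 7 were called higher and 2 lower (median log2 ratio 0.21), beside 16.4% and 16.7% of all class j variants and 20.3% and 16.6% of all transcripts. No gene total of these genes was called. RPL9 had a variant with 1 and 20633 counts (ratio interval 2525 to 555852), which spanned chr4:39379576-39458948 on the minus strand. The annotated NM_000661 of RPL9 had 26661 and 5496 counts in the merged table and 26662 and 35419 without models. RPS29 had a variant with 655 and 13629 counts, RPS4X one with 279 and 8975, and RPS20 one with 476 and 10271 beside a further one with 3218 and 1. The gene totals had log2 ratios of -0.20 for RPL9, 0.27 for RPS29 and -0.06 for RPS20.

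Receptor kinase, Ras and ERK genes had 7 variants in 6 of 34 genes (median log2 ratio 0.02). Of these, 2 were called higher and 2 lower, beside 16.4% and 16.7% of all class j variants. ERBB3, a receptor of the EGFR family, had a variant with 5814 counts (20.3 TPM) and 17405 (42.1 TPM), whose log2 ratio was 1.03 and whose share of the gene went from 34.8% to 70.5%. The ERBB3 gene total was 16727 and 24695 counts (log2 ratio 0.01). SHC1, an adaptor below these receptors, had one with 945 and 0 counts (at least 462-fold lower), and IRS1, the insulin receptor substrate, one with 0 and 1285 (at least 292-fold higher). None of the 20 CIC target genes on the list had a class j variant. Of 13722 genes with at least 100 counts in 1 library, 17% had one. The list was not filtered for expression, so these shares are not on the same base. Among 12 genes of CIC and its cofactors, 6 had 1 each, of which 5 were tested and 1 was called, lower: SMARCA2, a chromatin remodelling ATPase, had 1155 and 354 counts (log2 ratio -2.25). The median of these 5 was 0.01.

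Luminal genes had 16 variants in 9 of 24 genes (median log2 ratio 0.03). Of these, 2 were called higher and 2 lower, beside 16.4% and 16.7% of all class j variants. AGR3, a luminal marker, had 77 and 907 counts, and KRT18, a luminal keratin, a variant with 11 and 3109 counts that held 1.06% of its gene in the library labelled CIC knockdown. The lower ones were a variant of GATA3, a luminal transcription factor, with 2501 and 170 counts (17.4% and 0.871% of the gene), and one of GREB1, an estrogen-induced gene, with 547 and 316. The GATA3 variant with the most counts had 8203 and 11892 counts, and the GATA3 gene total had a log2 ratio of -0.11. Stem cell genes had 5 variants in 3 of 23 genes, 1 higher and 1 lower (median -0.14). NOTCH1, a signalling receptor, had one with 0 and 2707 counts (at least 615-fold higher), 58.6% of the gene. KLF4, a pluripotency factor, had a pair with 467 and 25 and with 502 and 1160 counts. The 6 variants of 6 cell junction genes showed no call (median -0.01).

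Cell cycle genes had 5 variants in 5 of 34 genes (median log2 ratio 0.61). The rule called 1 in each direction, beside 16.4% and 16.7% of all class j variants. MCM4, a subunit of the replicative helicase, had 5189 and 858 counts, and RRM2, a ribonucleotide reductase subunit, 13 and 3999. NM_001034 of RRM2 had 3794 and 2963 in the merged table and 3795 and 7596 without models, and the RRM2 gene total had a log2 ratio of 0.41. Stress and p53 genes had 6 variants in 5 of 26 genes, 1 called higher and none lower (median -0.02): BAX, which permeabilises mitochondria, had one with 192 and 824 counts beside one with 779 and 717. The 3 variants of lipid and sterol genes showed no call (3 of 29 genes, median 0.41). Hosts of small nucleolar RNAs had 6 variants in 4 of 29 genes and 1 higher call (median 0.12), SNHG29, with 269 and 2723 counts.

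The extremes of the ratios were single models at 0 in 1 library. ACTG1, gamma actin, had 3 near-copies with 29882, 25587 and 12157 counts in the control library against 0 each in the library labelled CIC knockdown (at least 14604-, 12505- and 5942-fold lower). The annotated NM_001614 of ACTG1 had 13575 and 135246 counts in the merged table and 98813 and 135246 without models, and the gene total had a log2 ratio of 0.15. EIF3I, a subunit of initiation factor 3, had a variant with 6253 and 0 counts (at least 3056-fold lower), while NM_003757 of EIF3I had 259 and 7814 in the merged table and 6450 and 9483 without models. H3F3A, a gene of replication-independent histone H3.3, had a variant with 0 and 11133 counts (at least 2531-fold higher), with NM_002107 at 12855 and 6614, or 12855 and 17732 without models. RACK1, a scaffold on the ribosome, had 1 variant with 12256 and 0 counts, 1 with 0 and 11749, and 1 with 6895 and 33910. Annotated NM_006098 of RACK1 had 21851 and 10141 counts, or 43734 and 57238 without models. TMEM64 had a variant with 0 and 34041 counts (at least 7739-fold higher), and LARS, a leucyl-tRNA synthetase, one with 0 and 7865 (at least 1788-fold higher). In ACTG1, EIF3I and H3F3A the annotated transcript went the opposite way to the model in the merged table. In the table without models it had more counts in the deeper library, the one labelled CIC knockdown, in each of these genes.

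**Figure D5:**
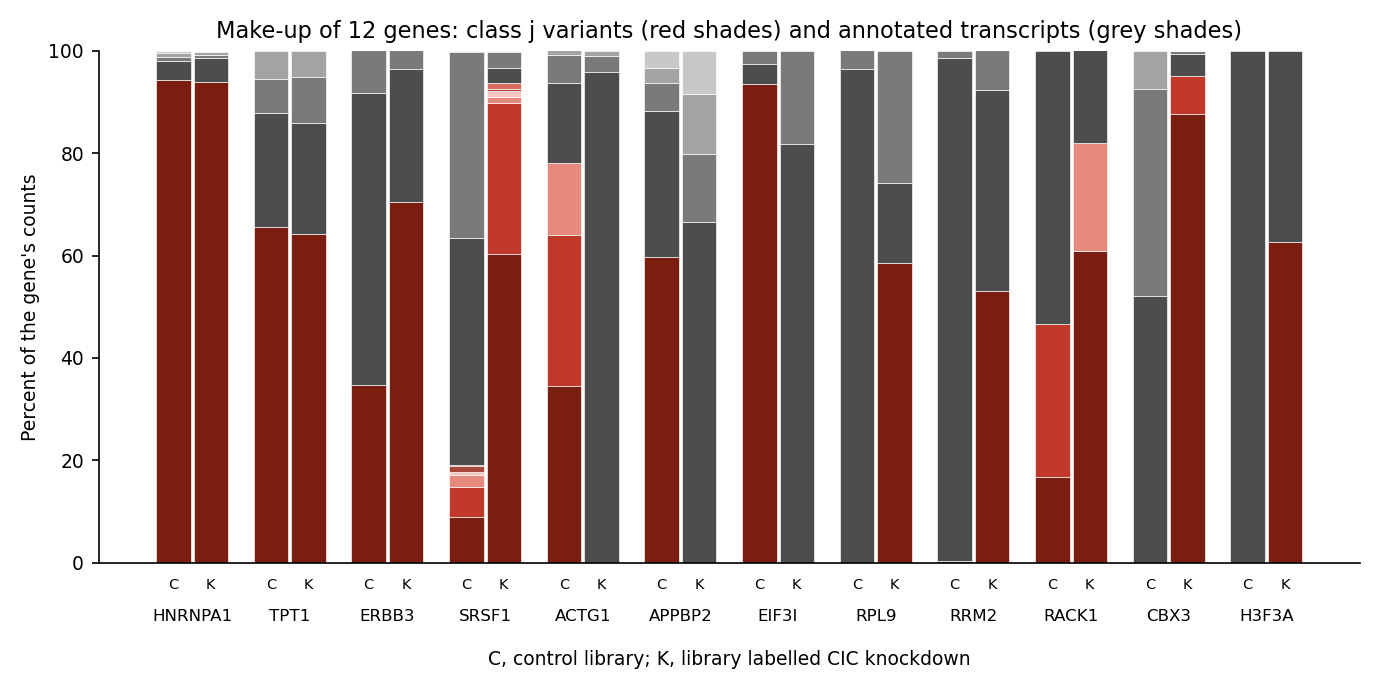
Make-up of 12 genes as percent of the gene's counts in the control library (C) and the library labelled CIC knockdown (K), with class j variants in red shades and other transcripts in grey shades. HNRNPA1 and TPT1 keep their make-up, with HNRNPA1 at 94.2% and 93.9%, while in SRSF1 the class j part goes from 19.1% to 93.7% and in EIF3I from 93.5% to 0.

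Other abundant variants stayed level. RPSA, a protein of the small ribosomal subunit, had a variant with 22041 and 32567 counts, 77% and 80.2% of the gene. A further RPSA variant did not stay level, with 3502 and 0 counts. TRIM37, a ubiquitin ligase amplified in some breast cancers, had one with 40606 and 64984 counts. CCNL1, a cyclin that acts in splicing, had 7 variants that summed to 97.8% and 98.1% of the gene, none past the rule. The class j variant with the highest level lay in LOC107987206, with 141502 and 257267 counts (2895 and 3642 TPM); its span overlaps RN7SL1, the abundant RNA of the signal recognition particle.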

How the data were processed

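RNA of 2 libraries, 1 per group, was prepared as stranded total RNA and sequenced on an Illumina NovaSeq, per the labels. The tools StringTie, HISAT2 and Trimmomatic, without versions, and build hg38 (GRCh38) come per the submitters' processing notes. The authors deposited, per the file headers, estimated counts, FPKM and TPM for each transcript in each library, in a table of annotated transcripts, a table merged with assembled models and a list of assembled splice variants; strand settings of the counting are not given in the sources used here. All per-sample columns were mapped, and 0 were left unused.

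Members, gene lists and rules were chosen with earlier results of these data known. Log2 ratios used TMM factors of edgeR 4.0.16 (R 4.3.3) and a prior count of 2; exact intervals used scipy 1.17.1 in Python 3.11.15. Where 1 library had 0 counts, it was set to a floor of 3 counts, so that the fold is a lower bound for counting only. It does not cover how estimated counts were divided among the listed models. Junctions, letters and frames were read from GENCODE 29 transcripts (GRCh38), so letters were read only where a GENCODE exon covers them. Annotated transcripts near one another share reads, and their estimated counts depend on which models are present.

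Named variants were the 10 with the highest mean TPM, the 10 highest and 10 lowest log2 ratios, the 10 largest rises and falls in share, up to 5 per gene list by mean TPM and the genes with the most variants, leaving out symbols that begin with LOC or that name readthroughs. The others named (among them UBB, OGFR, RBM27, SRRD, CD47, GFRA1, NCOA3, THRAP3, FAM120A and LOC107987206) were chosen after their values were seen. Some results are not reported here.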

Additional observations from a re-analysis of the deposited data

How the results depend on the processing

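With 1 library a group, differences between cultures or preparations cannot be told apart from the labelled condition. No paired analysis was possible because each group has 1 library. The median log2 ratio of -0.05 was -0.04 with library totals without TMM factors, -0.06 with a minimum of 50 counts or with none, -0.01 with a minimum of 500 counts, and -0.03 with the authors' TPM or FPKM. The counts of variants past the rule of size stayed within 1.5 times of 543 and 553 under those settings. In alternatives chosen after seeing the data, summing class j variants per gene gave 301 higher and 264 lower, and summing all transcripts gave 14 and 17. Within their own genes, class j variants held 39.2% and 41% of TPM in the control library and the library labelled CIC knockdown. They held 32.6% and 32.9% when class j counts were divided by themselves plus the annotated counts of these genes in the table without models. Counts that the models took from annotated transcripts can enter that denominator more than once, so these values are not comparable with 43.5% and 44.5%. Without the gene that overlaps RN7SL1, class j held 42.7% and 43.6% of counts (also chosen after seeing the data). A 10-point move in share gave 696 higher and 663 lower, and a denominator that used annotated counts from the table without models gave 222 and 196. Of the 93 named variants, the log2 ratio of 9 moved with TPM and of 12 with FPKM, and none was reversed. Where a value moved, the cause was not tested.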
